A study of Homo sapiens with 6 samples.

Results

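The RNA interference machinery is described here by 10 genes, each chosen by its symbol in both deposited tables of comparisons: the nuclease genes DROSHA and DICER1, the export receptor gene XPO5, the Argonaute genes AGO1, AGO2, AGO3 and AGO4, and the scaffold genes TNRC6A, TNRC6B and TNRC6C. All 10 were found among the 33095 genes of the tables, and all 10 carried an adjusted p-value in both comparisons. The cells were MM.1S, an established human line of multiple myeloma, a cancer of plasma cells. They had been transduced with lentivirus for anti-IRF3 shRNA 1, for anti-IRF3 shRNA 2 or for the scramble control, with 2 libraries of poly(A)-selected RNA per arm and 6 in all. Each arm was 1 cell line with 1 hairpin, and scramble cells carried a hairpin too, so the comparisons set hairpins against each other and never against cells without one. The labels used here do not give the time after transduction.

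Short hairpin RNAs use the cell's own microRNA pathway. A primary microRNA is cut in the nucleus by DROSHA with its partner DGCR8, the resulting hairpin is carried to the cytoplasm by exportin 5 (XPO5) with RAN, and DICER1 trims it to a short duplex. An Argonaute protein keeps one strand of the duplex as its guide, and TNRC6 proteins bound to Argonaute bring in the deadenylases and decapping factors that silence the paired mRNA. Simple vector-made short hairpins skip the DROSHA step and enter at export, though this depends on the design of the hairpin. AGO2 is the Argonaute known for slicing a fully paired target. The design and sequences of the hairpins are not analysed here.

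Each table gives a gene's average normalised read count across libraries, the log2 fold change of shRNA over scramble with its standard error (SE), and a DESeq2 adjusted p-value, but no value of a single library. A mean for each arm was therefore reconstructed from the overall mean and both fold changes, and is named as reconstructed wherever it is printed. The depth of each library is unknown. No label tells whether an arm's libraries were grown as separate cultures, so p-values reflect only how far these libraries vary, a spread that may be technical alone. IRF3, the targeted gene, had reconstructed means of 974 with shRNA 1, 2476 with shRNA 2 and 2809 with scramble. The log2 fold change of IRF3 was -1.53 ± 0.10 (SE) with shRNA 1 and -0.18 ± 0.10 with shRNA 2 in the authors' deposited tables, so a fall of the target was not shown for the libraries labelled shRNA 2. The 10 plasma cell markers had means of 1665 to 64522, whereas 10 markers of other cell types lay between 0.384 and 209.6, with 7 of them under 50. Of these 10, 1 rose and 1 fell under shRNA 1 out of 4 tested, while 0 rose and 2 fell under shRNA 2 out of 6. PECAM1, an endothelial marker that some plasma cells carry, fell in both, at -2.55 ± 0.26 and -1.92 ± 0.25 (SE), in the authors' deposited tables. The T cell marker CD3E, with a mean of 57.1, was at 1.35 ± 0.48 with shRNA 1, where it passed, and 0.69 ± 0.48 (SE) with shRNA 2, in the authors' deposited tables. The erythroid marker HBB, with a mean of 144, was at -0.23 ± 0.30 with shRNA 1 and -0.85 ± 0.31 (SE) with shRNA 2, where it passed, in the authors' deposited tables. Of the 10 plasma cell markers, 1 rose and 6 fell under shRNA 1, while 2 rose and 7 fell under shRNA 2. Among all genes tested, 9.80% were called higher and 14.8% lower with shRNA 1, and 10.9% and 18.1% with shRNA 2. The median log2 fold change of the plasma cell markers was -0.42 with shRNA 1 and -0.65 with shRNA 2, against -0.03 and 0 over all genes tested. These shares are not matched for level, and the part of both marker lists in the results was not tested. In bulk RNA, fewer cells with a transcript and less of it per cell cannot be told apart.

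With shRNA 1, DROSHA and AGO4 were lower and TNRC6C was higher than with scramble. With shRNA 2, DICER1, TNRC6C, AGO4 and AGO1 were lower and TNRC6A was higher. XPO5, AGO2, AGO3 and TNRC6B passed in neither comparison. At a DESeq2 adjusted p below 0.05, 3 of the 10 genes were called with shRNA 1 and 5 of the 10 with shRNA 2 in the authors' deposited tables. Among all genes with an adjusted p, 24.6% were called with shRNA 1 and 29.0% with shRNA 2, so the count with shRNA 1 lies near the background, and the count with shRNA 2 exceeds it by few genes. That background is not matched for level. It takes in genes with means down to 26.8 with shRNA 1 and 11.8 with shRNA 2, whereas the 10 genes had means of 715 to 3088. The median log2 fold change of the 10 genes was -0.03 with shRNA 1 and -0.19 with shRNA 2, against -0.03 and 0 over all genes tested. Both comparisons use the same scramble libraries, so their values for a gene are not independent of each other.

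**Figure D1:**
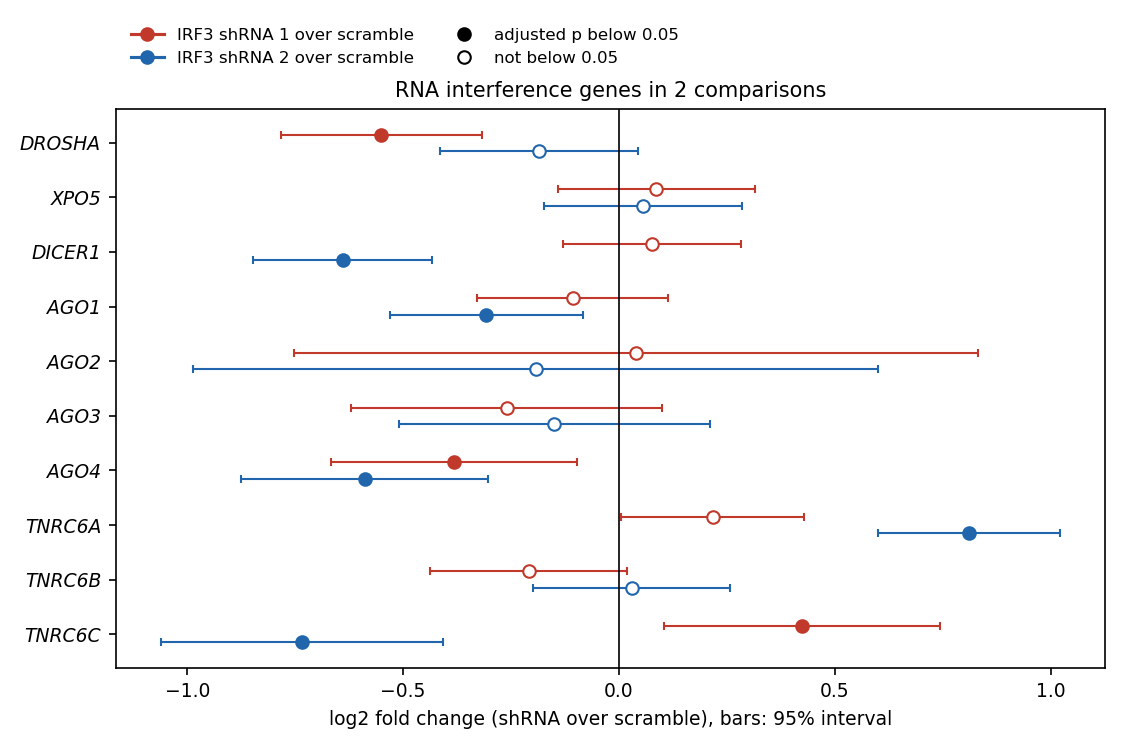
Log2 fold change of each RNA interference gene (rows, from hairpin processing to silencing) with IRF3 shRNA 1 (red) and IRF3 shRNA 2 (blue) over scramble, as deposited by the authors; bars are 95% intervals and filled points have an adjusted p below 0.05. TNRC6C lies on opposite sides of 0 in the 2 comparisons, at 0.42 and -0.73, and AGO2 has the widest intervals.

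The genes of the processing enzymes, DROSHA and DICER1, passed in different comparisons, and no test set them against each other. DROSHA (chromosome 5, 31400497 to 31532196, minus strand, GRCh38), the nuclear nuclease that cuts primary microRNAs, had reconstructed means of 1078 with shRNA 1, 1389 with shRNA 2 and 1578 with scramble. The shRNA 1 arm was thus the lowest and the shRNA 2 arm lay nearer to scramble. With shRNA 1 the authors' deposited table gave a log2 fold change of -0.55 ± 0.12 (SE), which is a ratio of 0.683 (95% interval 0.581 to 0.802; DESeq2 adjusted p = 4.37e-05). For shRNA 2 the authors' deposited table held -0.18 ± 0.12 (SE), or a ratio of 0.880 (0.751 to 1.03), which did not pass (DESeq2 adjusted p = 0.260). The difference of shRNA 2 minus shRNA 1 was 0.37 ± 0.17 (SE) and did not pass, at an adjusted p = 0.0893 by a two-sided z test whose SE counts the scramble libraries in both comparisons. With an SE reconstructed without the scramble libraries, the adjusted p was 0.00646, so whether the hairpins differ in DROSHA depends on that choice.

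DICER1 (chromosome 14, 95086228 to 95158010, minus strand), the cytoplasmic nuclease that trims hairpins to duplexes, had reconstructed means of 2519 with shRNA 1, 1532 with shRNA 2 and 2388 with scramble. The shRNA 2 arm stood apart from the other two. Its log2 fold change was 0.08 ± 0.11 (SE) with shRNA 1 (DESeq2 adjusted p = 0.679), and -0.64 ± 0.11 with shRNA 2 (DESeq2 adjusted p = 2.53e-08), in the authors' deposited tables. The ratio was 1.06 (0.915 to 1.22) with shRNA 1 and 0.642 (0.556 to 0.741) with shRNA 2. DICER1 was lower with shRNA 2 than with shRNA 1 by a ratio of 0.608 (0.497 to 0.745), and the difference passed with an adjusted p of 2.12e-05 in the z test. DICER1-AS1, a gene on the opposite strand whose exons overlap those of DICER1, had a mean of 123 and passed in neither comparison, at 0.50 ± 0.34 with shRNA 1 and 0.51 ± 0.33 with shRNA 2 (SE) in the authors' deposited tables. Whether reads were counted by strand is not stated in the labels, so reads of the overlapping exons cannot be told apart.

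XPO5 (chromosome 6, 43522330 to 43576075, minus strand), the receptor that carries hairpin precursors out of the nucleus, had reconstructed means of 2680 with shRNA 1, 2625 with shRNA 2 and 2524 with scramble. These 3 levels lay close together. Its log2 fold changes were 0.09 ± 0.12 and 0.06 ± 0.12 (SE) in the authors' deposited tables, with DESeq2 adjusted p-values of 0.676 and 0.800. The ratio intervals, 0.906 to 1.24 with shRNA 1 and 0.887 to 1.22 with shRNA 2, leave out changes in XPO5 mRNA larger than these bounds. POLR1C, a polymerase subunit gene on the opposite strand with overlapping exons and a mean of 919, also passed in neither comparison. Reads of the exons it shares with XPO5 cannot be told apart without strand.

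**Figure D2:**
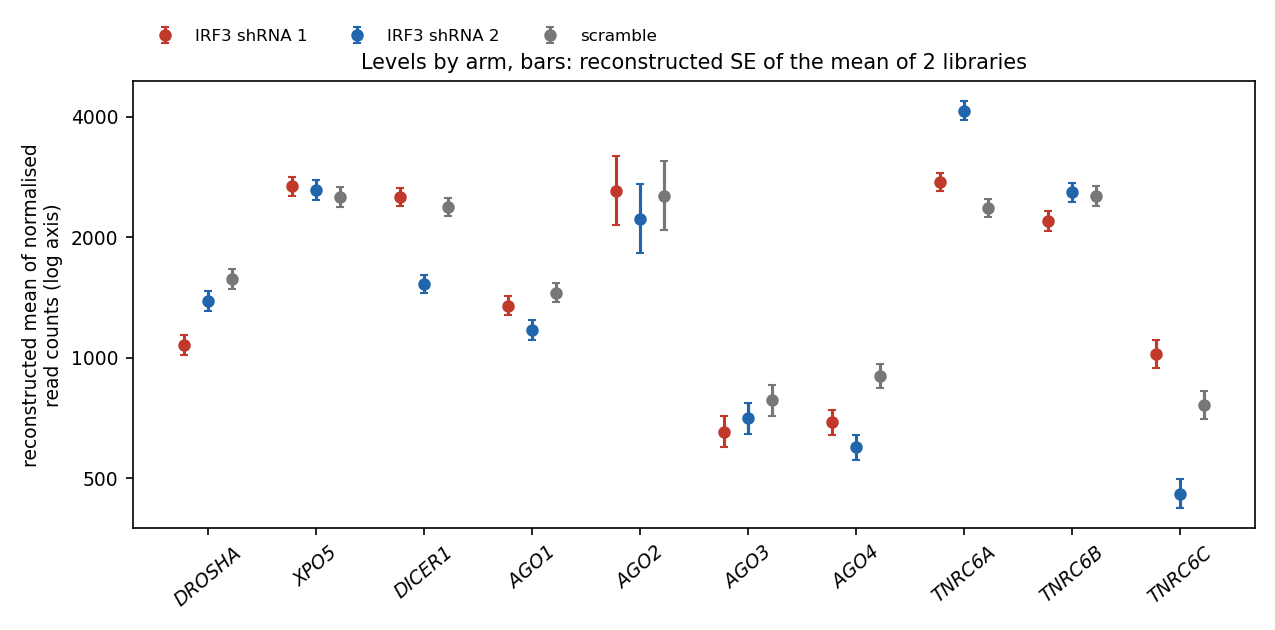
Reconstructed mean normalised read count (log axis) of each gene with IRF3 shRNA 1 (red), IRF3 shRNA 2 (blue) and scramble (grey); bars are the reconstructed SE of a mean of 2 libraries. DICER1 is lowest with shRNA 2 at 1532, DROSHA lowest with shRNA 1 at 1078, and TNRC6A highest with shRNA 2 at 4148; levels of different genes are not per length here.

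Of the 4 Argonaute genes, AGO4 was lower in both comparisons and AGO1 passed with shRNA 2 but not with shRNA 1. AGO4, AGO1 and AGO3 are neighbours on the plus strand of chromosome 1, in that order, at 35808172 to 35857890, 35869808 to 35930528 and 35930718 to 36072500. AGO1 starts 11917 bases after AGO4 ends, and AGO3 starts 189 bases after AGO1 ends, so the division of reads near that last border rests on the annotation. AGO4, which binds microRNAs and is not known to slice in human cells, had reconstructed means of 691 with shRNA 1, 598 with shRNA 2 and 900 with scramble. Both shRNA arms lay below scramble. Its log2 fold changes were -0.38 ± 0.15 with shRNA 1 (DESeq2 adjusted p = 0.0378), and -0.59 ± 0.15 (SE) with shRNA 2 (DESeq2 adjusted p = 0.000350), in the authors' deposited tables. With shRNA 1 AGO4 no longer passed when genes of low count were kept in the adjustment (adjusted p = 0.0854) or when fold changes were recentred on the median gene (0.0720).

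AGO1, an Argonaute that acts mainly through its TNRC6 partners, had reconstructed means of 1350 with shRNA 1, 1176 with shRNA 2 and 1454 with scramble. Its log2 fold changes were -0.11 ± 0.11 and -0.31 ± 0.11 (SE) in the authors' deposited tables, with DESeq2 adjusted p-values of 0.568 with shRNA 1 and 0.0272 with shRNA 2. With shRNA 2 AGO1 no longer passed when genes of low count were kept in the adjustment (adjusted p = 0.0526) or after recentring (0.0634). AGO3, the third gene of the cluster, had reconstructed means of 655 with shRNA 1, 707 with shRNA 2 and 784 with scramble. Its log2 fold changes of -0.26 ± 0.18 and -0.15 ± 0.18 (SE) did not pass in the authors' deposited tables, with DESeq2 adjusted p-values of 0.341 and 0.627. All 3 clustered genes thus had a reconstructed mean below that of scramble in both shRNA arms, and 3 of these 6 differences passed. These differences share the scramble libraries and are not independent. The calls of AGO4 with shRNA 1 and of AGO1 with shRNA 2 were lost in the alternatives given above. Among all genes tested, 14.8% were called lower with shRNA 1 and 18.1% with shRNA 2. Whether the cluster moved together was not tested. None of the 3 clustered genes passed the test of the difference between the hairpins, with adjusted p-values of the z test of 0.396 for AGO1, 0.817 for AGO3 and 0.511 for AGO4. The ratios of shRNA 2 over shRNA 1 had intervals of 0.700 to 1.08, 0.759 to 1.54 and 0.655 to 1.15.

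AGO2 (chromosome 8, 140520156 to 140635619, minus strand), the slicing Argonaute on which shRNA knockdown rests, had reconstructed means of 2614 with shRNA 1, 2225 with shRNA 2 and 2544 with scramble. Its log2 fold changes were 0.04 ± 0.40 and -0.19 ± 0.40 (SE) in the authors' deposited tables, with DESeq2 adjusted p-values of 0.967 and 0.801. Its SE was over 3 times the median SE of 0.121 among the 4965 genes with a mean of 700 to 3100. The ratio intervals ran from 0.593 to 1.78 with shRNA 1 and from 0.505 to 1.51 with shRNA 2, so the AGO2 values are compatible with any ratio within these bounds. The dispersion that the deposited SEs imply for AGO2 was 0.0781, a coefficient of variation between libraries of an arm of 28.0%. Among the 2108 genes with a mean within 1.5 times that of AGO2, the median coefficient was 6.70%, and 0 of them were more dispersed than AGO2. The other 9 genes had coefficients of 6.99% to 12.2%. All these coefficients come from dispersions fitted by DESeq2, which shares information between genes, and are not spreads measured on single libraries. The observed contrast between AGO2 and other genes may therefore differ. Without values of single libraries, it is unknown whether the spread of AGO2 came from a single library or from several, and the cause was not tested.

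**Figure D3:**
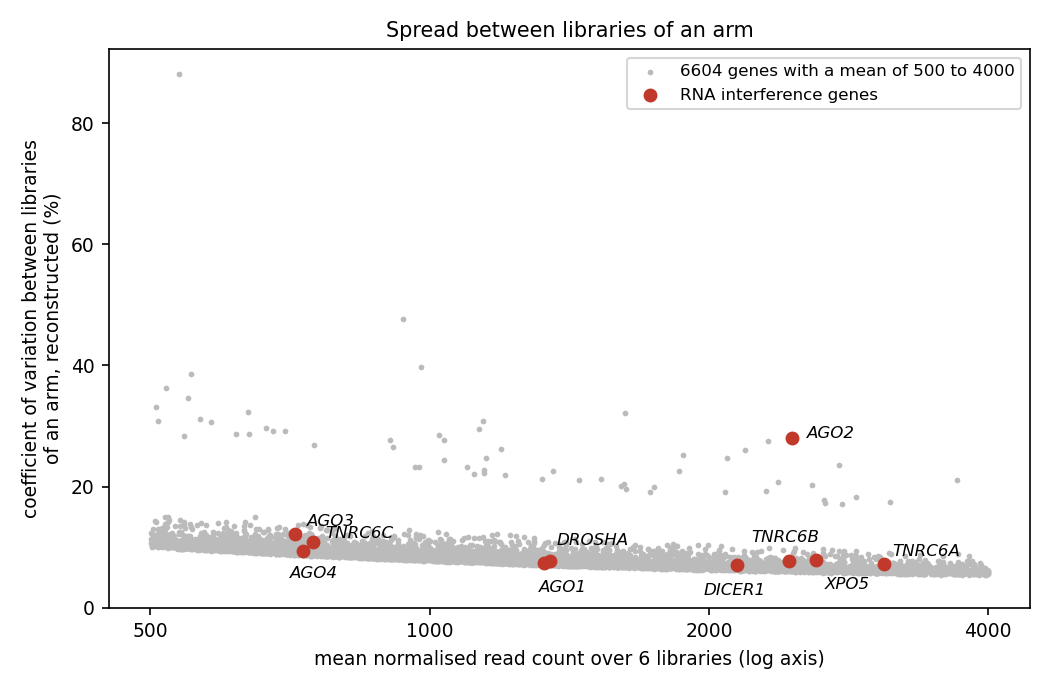
Reconstructed coefficient of variation between libraries of an arm (%), as implied by the fitted dispersion and not measured on single libraries, against the mean normalised read count (log axis). Shown are all genes with a mean of 500 to 4000 (grey) and the 10 RNA interference genes (red). AGO2 sits at 28.0%, while the other 9 genes lie between 6.99% and 12.2%, of which AGO3 is the highest.

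Per kilobase of annotated exon, AGO2 was the highest Argonaute and AGO3 the lowest. Over all libraries, AGO2 had a mean of 155 normalised reads per kb, AGO4 100.4, AGO1 95.5 and AGO3 33.8, which are 40.4%, 26.1%, 24.8% and 8.78% of the sum of the 4 genes. The reconstructed sum was 388 per kb with shRNA 1, 341 with shRNA 2 and 426 with scramble, ratios to scramble of 0.911 and 0.800. These sums carry the wide error of AGO2, whose reconstructed relative SE was 19.8% in each arm, and no test was made of them. The 4 PIWI genes, paralogs of the Argonautes that work mainly in the germline, had means of 1.83 to 15.6, and 1 of them carried an adjusted p in 1 comparison.

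Among the 10 genes, TNRC6C had the largest difference between the hairpins, and TNRC6A moved the other way. TNRC6A (chromosome 16, 24610209 to 24827632, plus strand), a scaffold of glycine-tryptophan repeats that binds Argonaute and recruits deadenylases, had reconstructed means of 2750 with shRNA 1, 4148 with shRNA 2 and 2366 with scramble. The shRNA 2 arm was the highest. TNRC6A stood at a log2 fold change of 0.22 ± 0.11 under shRNA 1 (SE), which did not pass (DESeq2 adjusted p = 0.138), and 0.81 ± 0.11 with shRNA 2 (DESeq2 adjusted p = 1.45e-12), in the authors' deposited tables. With shRNA 2 the ratio to scramble was 1.75 (1.51 to 2.03). TNRC6A was higher with shRNA 2 than with shRNA 1 by a ratio of 1.51 (1.23 to 1.86), with an adjusted p of 0.000830 in the z test.

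TNRC6C (chromosome 17, 77959240 to 78108835, plus strand), a paralog with the same role, had reconstructed means of 1024 with shRNA 1, 458 with shRNA 2 and 763 with scramble. The shRNA arms lay on opposite sides of scramble. Its log2 fold change was 0.42 ± 0.16 (SE) with shRNA 1 (DESeq2 adjusted p = 0.0398), and -0.73 ± 0.17 with shRNA 2 (DESeq2 adjusted p = 8.63e-05), in the authors' deposited tables. The level with shRNA 2 was 0.448 times that with shRNA 1 (0.326 to 0.615), with an adjusted p of 1.03e-05 in the z test. The rise with shRNA 1 did not pass when genes of low count were kept in the adjustment (adjusted p = 0.0898). TNRC6C-AS1, a noncoding gene on the opposite strand whose exons overlap those of TNRC6C, had reconstructed means of 1041 with shRNA 1, 1901 with shRNA 2 and 887 with scramble. For the antisense gene, the log2 fold change came to 0.23 ± 0.12 (SE) under shRNA 1 (DESeq2 adjusted p = 0.159), and 1.10 ± 0.12 with shRNA 2 (DESeq2 adjusted p = 4.62e-19), in the authors' deposited tables. In the shRNA 2 libraries the antisense gene was therefore higher and TNRC6C lower than with scramble, and reads of their shared exons cannot be told apart without strand. TNRC6C-AS1 was singled out after its values were seen, as an overlapping gene.

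TNRC6B (chromosome 22, 40044817 to 40335808, plus strand), the third paralog, had reconstructed means of 2195 with shRNA 1, 2590 with shRNA 2 and 2537 with scramble. Its log2 fold changes were -0.21 ± 0.12 and 0.03 ± 0.12 (SE) in the authors' deposited tables, with DESeq2 adjusted p-values of 0.197 and 0.903. Per kilobase of annotated exon, the reconstructed share of TNRC6A in the TNRC6 sum was 51.3% with shRNA 1, 65.3% with shRNA 2 and 48.4% with scramble. That of TNRC6C was 22.2% with shRNA 1, 8.39% with shRNA 2 and 18.1% with scramble. The sum itself was 415 per kb with shRNA 1, 492 with shRNA 2 and 379 with scramble, ratios of 1.10 and 1.30. These sums and shares depend on the gene length used, and no test was made of them. With the longest transcript as the length, the sums were 551, 680 and 498 per kb, ratios of 1.11 and 1.37. The share of TNRC6A was then 59.1% with shRNA 1, 72.3% with shRNA 2 and 56.4% with scramble. Which gene led did not change between arms, whereas the distance between the paralogs was widest with shRNA 2.

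**Figure D4:**
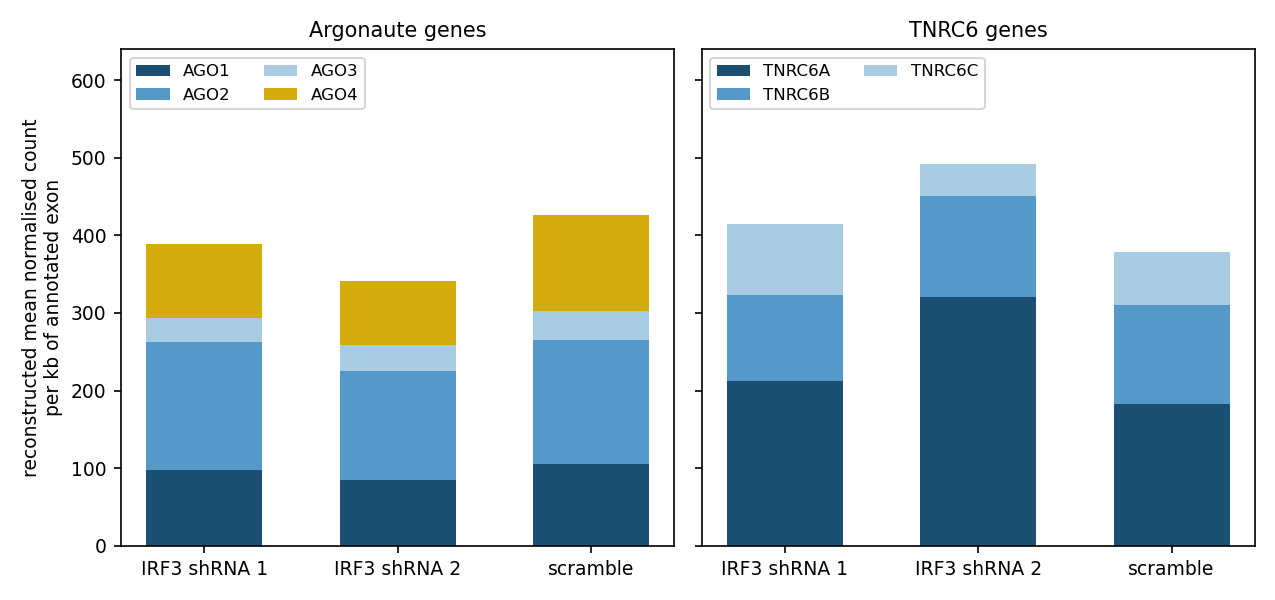
Reconstructed mean normalised read count per kb of annotated exon, stacked by gene, for the Argonaute genes (left) and the TNRC6 genes (right) with IRF3 shRNA 1, IRF3 shRNA 2 and scramble; single libraries are not shown because the tables hold none. The TNRC6 sum is highest with shRNA 2 at 492 per kb, where TNRC6A makes up 65.3% of it, and the Argonaute sum is lowest with shRNA 2 at 341 per kb.

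In the test of the difference between hairpins, 3 of the 10 genes passed, DICER1 and TNRC6C as lower and TNRC6A as higher with shRNA 2 than with shRNA 1. The background was 27.0% of the 12977 genes with a mean of 50 or more (11.5% higher and 15.5% lower), near the share of the members. With the SE reconstructed without scramble, where DROSHA passed too, it was 43.7%. The z test counts the error of the scramble libraries in both SEs and is strict for that reason.

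Of the partner genes in 9 lists, 35 of 117 tested (29.9%) were called with shRNA 1 and 55 of 119 (46.2%) with shRNA 2, against 24.6% and 29.0% of all genes. The share with shRNA 1 lies near that background, and the difference between the 2 counts was not tested. These shares are not matched for level, and genes of higher count have smaller SEs and are called more easily. Median means were 3997 in the Microprocessor list, 3130 in the export list and 4648 in the chaperone list, but 218 among microRNA hosts. Whether partner genes exceed genes of like level was not tested. Of 13 Microprocessor cofactors, 1 rose and 1 fell under shRNA 1, while 1 rose and 7 fell under shRNA 2 (medians 0.02 and -0.29) by the authors' deposited tables. The background shares of lower genes were 14.8% with shRNA 1 and 18.1% with shRNA 2, and those of higher genes 9.80% and 10.9%. DGCR8, the obligate partner of DROSHA, had reconstructed means of 1725 with shRNA 1, 909.5 with shRNA 2 and 1698 with scramble. Its log2 fold change with shRNA 2 was -0.90 ± 0.12 (SE; DESeq2 adjusted p = 5.72e-13), and 0.02 ± 0.12 with shRNA 1, which did not pass, in the authors' deposited tables. DROSHA and DGCR8 thus passed in different comparisons. DDX17, an RNA helicase that assists the Microprocessor, was at -1.40 ± 0.08 with shRNA 2 and -0.19 ± 0.08 (SE) with shRNA 1, where its DESeq2 adjusted p was 0.0506, in the authors' deposited tables. KHSRP, an RNA-binding protein that promotes the maturation of some microRNAs, rose with shRNA 1 at 0.27 ± 0.07 and fell with shRNA 2 at -0.43 ± 0.07 (SE) in the authors' deposited tables.

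Of 10 genes of nuclear export and the RAN cycle, 1 rose and 1 fell under shRNA 1, while 0 rose and 8 fell under shRNA 2 (medians -0.12 and -0.42) by the authors' deposited tables. RAN, the GTPase that exportin 5 needs to hold its cargo, was at 0.23 ± 0.08 with shRNA 1 and -0.32 ± 0.08 (SE) with shRNA 2, and passed in both with opposite signs, in the authors' deposited tables. RANBP1, a cofactor of RAN, was at -1.59 ± 0.12 (SE) with shRNA 2, a fall to a reconstructed mean of 977.5 in shRNA 2 cells against 2939 in scramble cells, and at 0.20 ± 0.12 with shRNA 1 without passing, in the authors' deposited tables. RCC1, the exchange factor that loads RAN with GTP, was at -0.72 ± 0.12 with shRNA 2 and -0.18 ± 0.12 (SE) with shRNA 1, where it did not pass, in the authors' deposited tables. CSE1L, an exportin that recycles importin alpha, fell in both, at -0.54 ± 0.09 (SE) with shRNA 1 and -0.89 ± 0.09 with shRNA 2 in the authors' deposited tables. XPO5 itself passed in neither.

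Of 10 Dicer partners and double-stranded RNA binding proteins, 1 rose and 2 fell under shRNA 1, while 1 rose and 4 fell under shRNA 2 (medians -0.02 and -0.23) by the authors' deposited tables. The direct partners of Dicer, TARBP2 and PRKRA, passed in neither, with log2 fold changes of -0.01 ± 0.13 and 0.14 ± 0.13 for TARBP2 and of -0.03 ± 0.13 and -0.27 ± 0.13 (SE) for PRKRA in the authors' deposited tables; both were named after their values were seen. These counts are unstable: the 5 calls with shRNA 2 became 3 after recentring and 2 with genes of low count kept in the adjustment, and the 3 with shRNA 1 became 1 with those genes kept. ADAR, which edits adenosines in double-stranded RNA, fell with shRNA 1 at -0.77 ± 0.08 and with shRNA 2 at -0.19 ± 0.08 (SE; DESeq2 adjusted p = 0.0466) in the authors' deposited tables. EIF2AK2, the kinase PKR that is activated by double-stranded RNA, rose with shRNA 1 at 0.27 ± 0.10 and fell with shRNA 2 at -0.56 ± 0.10 (SE) in the authors' deposited tables. The helicase gene DHX9 was at -0.03 ± 0.09 with shRNA 1 and -0.28 ± 0.09 (SE) with shRNA 2, where it passed, in the authors' deposited tables. STAU2 was at -0.27 ± 0.10 with shRNA 1, where it passed, and -0.10 ± 0.10 (SE) with shRNA 2, in the authors' deposited tables. Neither passed the test of the difference between hairpins.

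Of 14 chaperone genes of the machinery that loads Argonaute, 2 rose and 4 fell under shRNA 1, while 2 rose and 7 fell under shRNA 2 (medians -0.12 and -0.25) by the authors' deposited tables. HSPA8, the constitutive HSP70 protein, fell in both, at -0.27 ± 0.07 and -0.34 ± 0.07 (SE), while its co-chaperone DNAJA1 rose in both, at 0.41 ± 0.08 and 0.29 ± 0.08, in the authors' deposited tables. HSP90AA1, the inducible HSP90 isoform, was at -0.20 ± 0.08 with shRNA 1 and -0.50 ± 0.08 (SE) with shRNA 2, where it passed, in the authors' deposited tables. The HSP90 co-chaperone CDC37 was at 0.09 ± 0.08 with shRNA 1 and 0.31 ± 0.08 (SE) with shRNA 2, where it passed, in the authors' deposited tables, and its difference between hairpins did not pass (adjusted p = 0.141). FKBP5, which is also a glucocorticoid response gene, was at -0.36 ± 0.12 and -0.77 ± 0.12 (SE), and PTGES3, the HSP90 co-chaperone p23, at 0.23 ± 0.07 and -0.32 ± 0.07, in the authors' deposited tables. HSPA1A, at -1.18 ± 0.42 and -1.19 ± 0.42 (SE) in the authors' deposited tables, has a near-identical copy and a mean of only 71.5, and its level is uncertain.

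Downstream of TNRC6, 0 of 19 deadenylase and poly(A) factor genes rose and 7 fell under shRNA 1, while 3 rose and 7 fell under shRNA 2 (medians -0.09 and 0) by the authors' deposited tables. CNOT6L, a catalytic subunit of the CCR4-NOT deadenylase, fell in both, at -0.51 ± 0.10 and -0.50 ± 0.10 (SE), in the authors' deposited tables. BTG1, a recruiter of the deadenylase that also restrains proliferation, fell with shRNA 1 at -0.49 ± 0.09 and rose with shRNA 2 at 0.51 ± 0.09 (SE) in the authors' deposited tables. The poly(A)-binding protein gene PABPC4 fell in both, at -0.43 ± 0.08 and -0.20 ± 0.08, while PABPC1 was at 0.12 ± 0.07 with shRNA 1 and 0.29 ± 0.07 (SE) with shRNA 2, where it passed, in the authors' deposited tables. The difference between hairpins did not pass for PABPC1 (adjusted p = 0.210). CNOT9, the subunit that docks TNRC6, was at 0.11 ± 0.10 with shRNA 1 and fell with shRNA 2, at -0.41 ± 0.10 (SE), by the authors' deposited tables. Among 20 decapping, P-body and repression factors, 1 rose and 2 fell under shRNA 1, out of 19 tested, while 1 rose and 3 fell under shRNA 2 by the authors' deposited tables. DCP2, the decapping enzyme, was at -0.20 ± 0.11 with shRNA 1 and -0.87 ± 0.11 (SE) with shRNA 2, where it passed, whereas DDX6, a helicase bound by the deadenylase complex, was at -0.45 ± 0.08 with shRNA 1, where it passed, and 0.16 ± 0.08 with shRNA 2, in the authors' deposited tables. LIMD1, a P-body scaffold, fell in both, at -0.23 ± 0.08 and -0.47 ± 0.08 (SE), in the authors' deposited tables.

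Of 18 genes of microRNA tailing, trimming and decay, 15 were tested; 2 rose and 4 fell under shRNA 1, while 2 rose and 2 fell under shRNA 2 by the authors' deposited tables. TUT7, which adds uridines to microRNA precursors, fell in both, at -0.83 ± 0.12 (SE) with shRNA 1 and -0.54 ± 0.12 with shRNA 2 in the authors' deposited tables. PARN, a nuclease that trims the ends of small RNAs, was at -0.96 ± 0.14 (SE) with shRNA 1, a reconstructed mean of 532 in shRNA 1 cells against 1036 in scramble cells, and at -0.15 ± 0.14 with shRNA 2, where it did not pass, in the authors' deposited tables. TSNAX, the translin partner of an endonuclease complex that clears passenger strands, was at -0.52 ± 0.12 with shRNA 1, where it passed, and -0.20 ± 0.12 (SE) with shRNA 2, in the authors' deposited tables, and its difference between hairpins did not pass (adjusted p = 0.165).

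**Figure D5:**
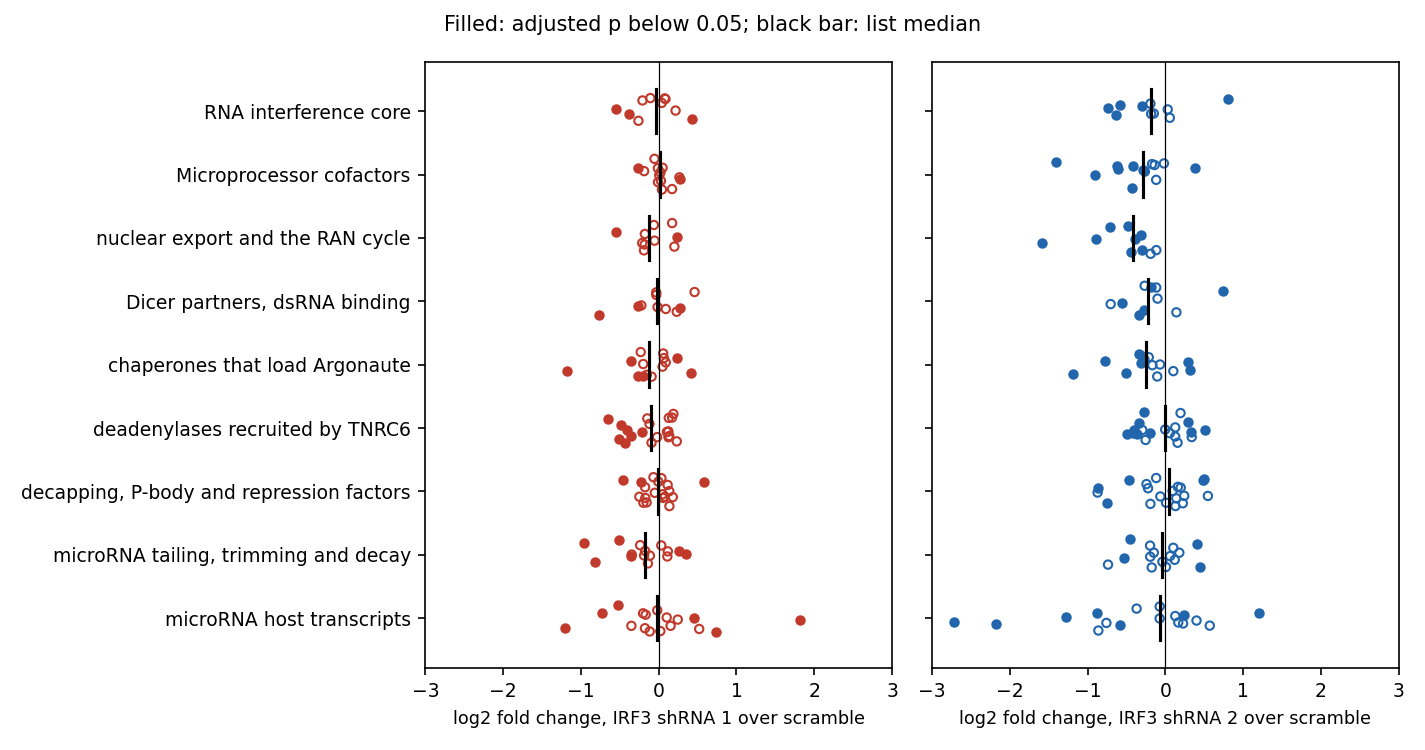
Log2 fold change of every tested gene (points, filled where the adjusted p is below 0.05) in the RNA interference core and in 8 lists of partner genes, with IRF3 shRNA 1 (left) and IRF3 shRNA 2 (right) over scramble; black bars are list medians. With shRNA 2 the export and RAN list has 8 of 10 genes filled on the lower side and a median of -0.42, against -0.12 with shRNA 1.

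Transcripts that carry microRNAs in their exons or introns were also read, 18 of 22 listed ones being in the tables and all 18 holding a microRNA gene on the same strand in GENCODE 29. Their poly(A) RNA is not a measure of the mature microRNA. Of 17 tested in each comparison, 3 rose and 3 fell under shRNA 1, while 2 rose and 5 fell under shRNA 2 by the authors' deposited tables. The mature sequences below, from RefSeq (GRCh38.p14), are some of those encoded in the hosts described next. Most are given so that hosts of a shared seed can be read side by side, while hsa-miR-34a-5p and hsa-miR-210-3p have 1 listed host each. Not every microRNA of a seed is printed, and hsa-miR-15a-5p of DLEU2, with the seed of hsa-miR-16-5p, is left out. Capitals mark the seed, bases 2 to 8.
hsa-miR-107: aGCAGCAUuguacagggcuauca
hsa-miR-103a-3p: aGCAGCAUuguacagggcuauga
hsa-miR-17-5p: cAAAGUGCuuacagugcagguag
hsa-miR-20a-5p: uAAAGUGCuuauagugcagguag
hsa-miR-106b-5p: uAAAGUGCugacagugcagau
hsa-miR-93-5p: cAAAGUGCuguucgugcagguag
hsa-miR-15b-5p: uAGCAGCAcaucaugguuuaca
hsa-miR-16-5p: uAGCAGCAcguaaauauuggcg
hsa-miR-34a-5p: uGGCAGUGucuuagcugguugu
hsa-miR-210-3p: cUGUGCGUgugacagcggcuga
hsa-miR-26a-5p: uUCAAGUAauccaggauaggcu

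The seed AAAGUGC is shared by 4 of these microRNAs from 2 hosts. MCM7, a replicative helicase gene that holds MIR106B and MIR93, fell in both, at -0.52 ± 0.09 (SE) with shRNA 1 and -0.58 ± 0.09 with shRNA 2 in the authors' deposited tables. MIR17HG, the host of MIR17 and MIR20A, had a mean of 81.9 and was at -0.12 ± 0.36 with shRNA 1 and -1.28 ± 0.38 (SE) with shRNA 2, where it passed (DESeq2 adjusted p = 0.00409), in the authors' deposited tables. It was named after its values were seen, and its difference between hairpins did not pass (adjusted p = 0.0875). SMC4, a condensin gene that holds MIR15B and MIR16-2, was at -0.87 ± 0.08 (SE) with shRNA 2 and -0.02 ± 0.07 with shRNA 1 in the authors' deposited tables. DLEU2, which holds MIR16-1 with the same mature hsa-miR-16-5p, had a mean of 89.6. It passed in neither of the authors' deposited tables, at -0.20 ± 0.35 with shRNA 1 and -0.86 ± 0.36 (SE) with shRNA 2 (DESeq2 adjusted p = 0.0540). MIR34AHG, the host of a microRNA induced by p53, rose in both, at 0.74 ± 0.19 and 1.20 ± 0.19 (SE), in the authors' deposited tables. MIR210HG, the host of a microRNA induced by hypoxia, rose with shRNA 1 at 1.81 ± 0.21 and was at 0.17 ± 0.22 (SE) with shRNA 2, where it did not pass, in the authors' deposited tables. CTDSPL, a phosphatase gene that holds MIR26A1, had the lowest value of the hosts, -2.72 ± 0.37 (SE) with shRNA 2 against -0.17 ± 0.33 with shRNA 1 in the authors' deposited tables, and was named after its values were seen. Its reconstructed means were 201 with shRNA 1, 34.4 with shRNA 2 and 226 with scramble. CTDSP2, which holds MIR26A2 with the same mature hsa-miR-26a-5p, had a mean of 4901 against 154 for CTDSPL. CTDSP2 passed in neither of the authors' deposited tables, at 0.02 ± 0.08 with shRNA 1 and -0.07 ± 0.08 (SE) with shRNA 2.

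PANK1 holds MIR107 and PANK3 holds MIR103A1, and the mature forms share the seed GCAGCAU; these microRNAs are known from work in cancer cells to target DICER1 mRNA. PANK1 was low, with a mean of 59.7, and fell in both comparisons, at -1.21 ± 0.43 (SE) with shRNA 1 and -2.18 ± 0.44 with shRNA 2 in the authors' deposited tables. PANK3, with a mean of 3463, passed in neither of the authors' deposited tables, at -0.18 ± 0.10 and -0.07 ± 0.10 (SE), and was named after its values were seen. In the longest annotated 3′ UTR of DICER1, of 4270 bases, the seed match ATGCTGC occurred 5 times on the mRNA strand. At least 1 match occurred in 29.1% of 3481 other 3′ UTRs within 1.5 times that length, and as many as 5 in 0.0575% of them. This was 1 of 80 pairs of a gene and a seed that were scanned. AGO2 also held 5 matches to this seed in a longer UTR of 11888 bases (as many in 0.274% of UTRs of like length), AGO1 and TNRC6B held 3 each, AGO4 held 2 and AGO3 held 1. The match TGCTGCT to the seed of hsa-miR-16-5p, which shares most of these letters, occurred 2 times elsewhere in the UTR. Only the mRNA strand was searched, and a match is a description of the sequence, not a shown site of binding. The 5 stretches are given 5′ to 3′ from GENCODE 29 transcripts (GRCh38, minus strand), with the seed match in capitals.
DICER1 chr14:95089457-95089478: atcacacctaaaatATGCTGCa
DICER1 chr14:95088856-95088877: tgatgcttcgtggaATGCTGCa
DICER1 chr14:95087652-95087673: ccgcagtcctaactATGCTGCg
DICER1 chr14:95086381-95086402: atatttaccatcacATGCTGCa
DICER1 chr14:95086329-95086350: ttcatacagtaatcATGCTGCa

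Beside these 5 stretches, DICER1 was lower with shRNA 2 and did not pass with shRNA 1, while PANK1 was lower with both hairpins and PANK3 passed with neither. The level of the mature microRNAs was not measured, and hosts outside the list, which may carry the same seed, were not read.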

How the data were processed

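RNA of MM.1S cells was sequenced after poly(A) selection, with 2 libraries per arm, and arms were taken from the sample titles. For the authors' steps, the submitters' processing notes name Salmon 0.12.0, DESeq2 1.24.0 and the build GRCh38 (hg38), without settings. Per the file headers, the authors deposited DESeq2 tables of 2 comparisons: a signal, the mean of normalised read counts (identical in both tables for 33095 genes, as in 1 fit of all libraries), log2 fold changes and their SEs on the log2 scale, a Wald score, which the authors formed as fold change over SE (it held to within 3.27e-07), and p-values with adjusted p-values. Genes without an adjusted p (14488 had one with shRNA 1, 17054 with shRNA 2) stayed out of counts. Calls are the authors' DESeq2 results at an adjusted p below 0.05.

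Arm means and dispersions were solved from the mean, both fold changes and both SEs, taking equal library sizes. Fold changes run as shRNA over scramble: each table yields a dispersion per gene, and over 1586 genes the median absolute log ratio between them was 0.00881 for this coding, against 0.130 if the shRNA 1 table is reversed, 0.203 if the shRNA 2 table is and 0.149 if both are. The hairpin difference was tested by z, with summed squared SEs, two-sided and Benjamini-Hochberg adjusted over 12977 genes; the script was tested on simulated data.

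All identifiers occur in GENCODE 29, which gave coordinates, exons and 3′ UTRs. Of 130 pathway symbols in 9 lists, 126 were found. Genes of the lists were named by a rule: up to 4 passing in both comparisons with the largest smaller change, up to 2 passing in 1 alone with the lowest p, and the 1 with the lowest p of the hairpin difference. The members and lists were chosen with earlier results of these data known. Salmon divides reads of close copies by a model, so levels of genes with many processed copies are estimates. Alternatives changed the p threshold, required a minimum fold change, kept genes of low count, recentred fold changes, or used another SE of the difference or another gene length. Python 3.11.15, pandas 2.3.3, numpy 2.4.6, scipy 1.17.1 and matplotlib 3.10.9 were used.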

Additional observations from a re-analysis of the deposited data

Results flagged for a closer look

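The fold change against scramble differed between the hairpins for 3 RNA interference genes and 22 other named genes, by the two-sided z test with Benjamini-Hochberg adjustment over 12977 genes, of which 27.0% passed. These are 3 of 10 and 22 of 46 genes looked at, and the other genes were named partly for a low p of this same difference, so their count is no measure of how often partners differ. Differences are log2 fold changes of shRNA 2 minus shRNA 1, with both hairpins' values from the authors' deposited tables. TNRC6C differed by -1.16 ± 0.23 (SE), at -0.73 with shRNA 2 and 0.42 with shRNA 1. DICER1 differed by -0.72 ± 0.15, at -0.64 with shRNA 2 and 0.08 with shRNA 1. TNRC6A differed by 0.59 ± 0.15, at 0.81 with shRNA 2 and 0.22 with shRNA 1. TNRC6C-AS1 differed by 0.87 ± 0.17, at 1.10 with shRNA 2 and 0.23 with shRNA 1. IRF3 itself differed by 1.35 ± 0.15, at -0.18 with shRNA 2 and -1.53 with shRNA 1.

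Among partners upstream of Dicer, the difference was -1.22 for DDX17, -0.92 for DGCR8 and -0.70 for KHSRP. In the export and RAN list it was -1.79 for RANBP1, -0.55 for RAN, -0.54 for RCC1 and -0.35 for CSE1L. It was -0.83 for EIF2AK2 and 0.58 for ADAR. The chaperone genes PTGES3, FKBP5 and HSP90AA1 differed by -0.55, -0.42 and -0.30. Downstream of TNRC6, BTG1 differed by 1.00, CNOT9 by -0.52, DCP2 by -0.67 and DDX6 by 0.61. PARN differed by 0.81, SMC4 by -0.86, MIR210HG by -1.65 and CTDSPL by -2.55. The adjusted p-values of these 25 genes ran up to 0.0470, the value of FKBP5.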

How the results depend on the processing

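Of 100 alternative values for the fold changes of the 10 genes, 89 kept direction and call, 11 lost the call and 0 reversed. The losses concern AGO4 and TNRC6C with shRNA 1 and AGO1 with shRNA 2. Of 40 for the hairpin differences, 38 kept the call and 2 gained it, both for DROSHA. Of 90 for counts in single lists, 64 stayed within 1.5 times and 26 moved, most at a threshold of 0.01 or with the fold minimum; the filter or recentring moved the Dicer partner list in both comparisons and the Microprocessor list with shRNA 1, from 2 calls to 1. Members called with shRNA 1 numbered 1 at a threshold of 0.01, 1 without the filter on low genes and 1 with a log2 fold change of at least 0.5, against 3. That fold minimum left 2002 genes with shRNA 1 and 3191 with shRNA 2, and 14 and 22 pathway genes against 35 and 55. At a threshold of 0.01, 20 pathway genes remained called with shRNA 1. With the SE reconstructed without scramble, 5676 genes differed between the hairpins against 3499. Taking the longest transcript as the length, a choice made after seeing the data, TNRC6A made up 63.5% of the TNRC6 sum over all libraries, TNRC6B 23.2% and TNRC6C 13.3%, against 55.8%, 28.5% and 15.7%. Calls lost at a stricter threshold or fold minimum follow from its construction; for the others the cause was not tested. No paired analysis was possible because the columns carry no single library, and for the same reason no library was left out. The depth of single libraries is unknown, so what it limits was not assessed.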
